A study of Mus musculus with 8 samples.

Results

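Accessible chromatin was measured by ATAC-seq, which cuts open DNA with a transposase that leaves adapters behind, so a higher count means a more open region. The cells were type 1 conventional dendritic cells (cDC1s), sorted out of B16-OVA tumours, a mouse melanoma line carrying ovalbumin as a model antigen. All mice were wild type, and no treatment other than the tumour was given in the labels. 4 libraries were made at day 21 after tumour inoculation and 4 at day 7. The labels state neither the age of the mice nor whether each library is a separate animal, so the p values measure library spread, which may be technical. The genes described are 9 adaptors, kinases and regulators of innate sensing: Tmem173 (Sting1 in newer tables), Mavs, Trex1, Tbk1, Ikbke, Myd88, Ticam1, Irak2 and Irak3. A region belonged to a gene if its centre lay in the gene body, or within 50 kb of the gene with an end of that gene as the nearest end of a protein-coding gene. This gave 70 of the 128057 regions of the table (mm10), 16 at gene ends, meaning within 1 kb of an annotated end, and 54 distal. They fell to 8 of the 9 genes, of 21887 protein-coding genes in all. Trex1 had no region within this rule, since the closest regions lay 22.962 kb and 25.284 kb away next to Pfkfb4 and Ccdc51, and it is not analysed here.

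Cells recognise foreign or misplaced nucleic acids and microbial products by sensors that signal through a small set of adaptors. The cytosolic DNA pathway runs through STING and the cytosolic RNA pathway through MAVS, and both recruit the kinases TBK1 and IKKε (Ikbke), which activate interferon regulatory factors. Toll-like receptors signal through MyD88 or TRIF (Ticam1), with kinases of the IRAK family downstream of MyD88. In tumours, STING signalling in dendritic cells is known for driving type I interferon and the priming of CD8 T cells.

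Most of the 70 regions did not pass the test between the days, and 13 of the 16 that did were lower at day 21. Of 68 regions with enough counts to test, 3 were higher at day 21, 13 were lower and 52 did not pass (edgeR quasi-likelihood test, Benjamini-Hochberg adjusted p under 0.05 over all regions). These were 4.41% higher, 19.1% lower and 23.5% either way of the 68, against 9.5%, 9.86% and 19.4% of all 121865 tested regions. The median log2 fold change was −0.13 for the 68 regions and 0.00166 for all regions, with 45 of the 68 below 0. In 16 regions the day 21 libraries were fully separated from the day 7 libraries, where the share over all tested regions was 19.8%. At gene ends 1 of 15 tested regions was higher and 3 were lower, beside 6.63% and 16.6% of all regions at gene ends (23.2% either way), and 5 were fully separated between days, beside 23.7%. Among distal regions 2 of 53 were higher and 10 lower, beside 9.98% and 8.72% of all regions outside gene ends (18.7% either way), and 11 were fully separated, beside 19.1%.

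Summed per gene, the ends of Ikbke and Tbk1 fell, the distal regions of Tbk1 rose and those of Irak3 fell. A gene-end sum took every region overlapping a gene's end windows, so those of Tbk1 and Myd88 each held a region nearest to another gene and outside the 70. No gene-end sum rose, and none was higher at an unadjusted p under 0.05 or with DESeq2 (0 of 8 each). The other 6 gene-end sums did not pass, where 6.71% of all 13572 genes were higher, 24.6% were lower and 31.3% moved either way. The median of the 8 was −0.16 and that of all genes −0.09. Of 7 distal sums 1 rose, 1 fell and 5 did not pass, beside 19.2%, 11.4% and 30.6% either way of 14830 genes. Both counts, 25% of the gene-end sums and 28.6% of the distal sums, were near those shares. Libraries were fully separated between days for 1 gene-end sum and 1 distal sum, beside 26.5% and 27.5% of all genes. These are bulk libraries, so fewer cells with an open region and less opening per cell cannot be told apart.

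**Figure D1:**
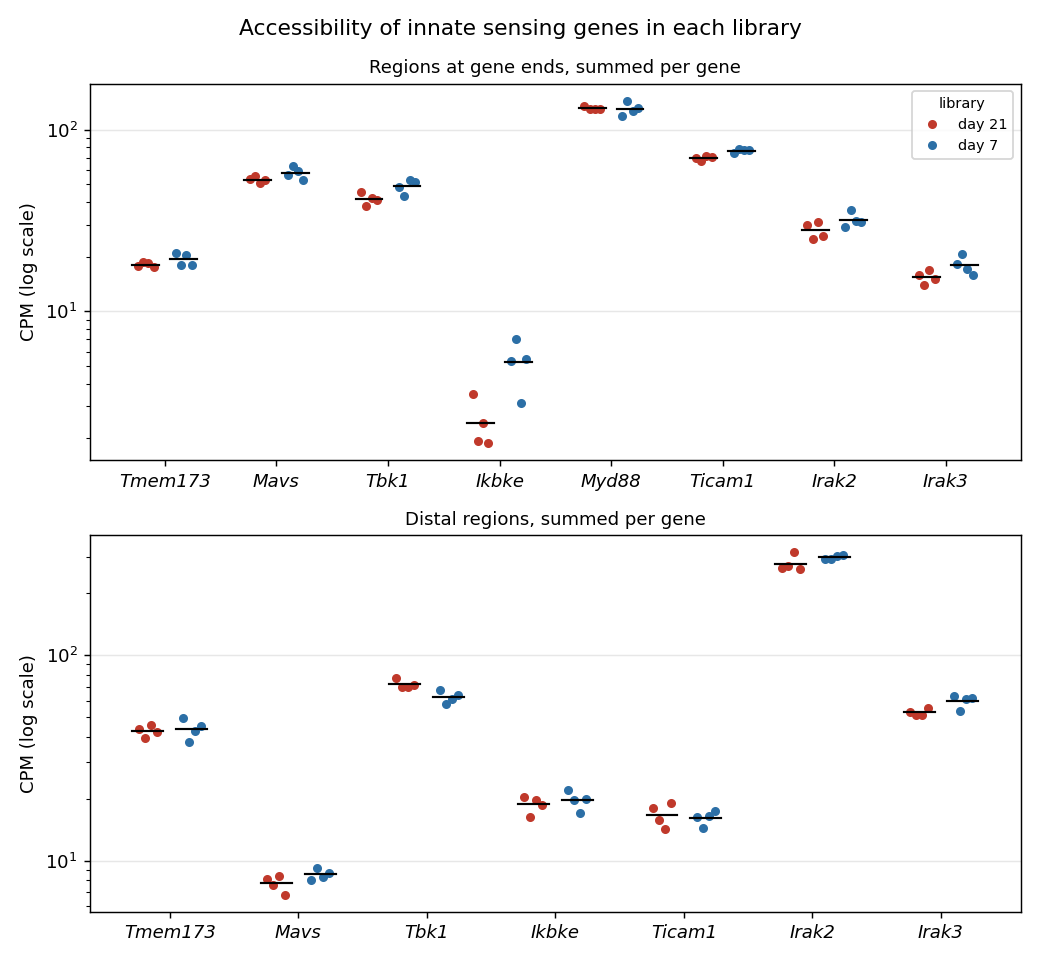
Summed CPM (counts scaled to the library total, log scale) of each library at gene ends (top) and in distal regions (bottom) for each gene, day 21 left of day 7, with bars at the means. Ikbke ends lie mostly lower at day 21, at 1.89 to 3.52 CPM, and Tbk1 distal regions higher, at 69.6 to 77.3 CPM.

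Promoter windows of 300 bases are shown for the 2 genes whose ends fell and for Myd88, whose start region was not called. They run from 250 bases before to 50 after the start, are written 5′ to 3′ on the strand of the gene, and come from RefSeq for GRCm38.p6, where all 8 genes other than Tmem173 had a window. Capitals mark a motif match.
Ikbke, chr1:131279514-131279813, minus strand: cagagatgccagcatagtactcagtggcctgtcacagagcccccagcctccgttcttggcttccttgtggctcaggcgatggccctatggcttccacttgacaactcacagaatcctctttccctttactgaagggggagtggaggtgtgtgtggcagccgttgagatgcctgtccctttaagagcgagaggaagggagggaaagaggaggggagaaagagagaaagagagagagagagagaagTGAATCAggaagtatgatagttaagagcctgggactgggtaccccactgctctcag
Tbk1, chr10:121586745-121587044, minus strand: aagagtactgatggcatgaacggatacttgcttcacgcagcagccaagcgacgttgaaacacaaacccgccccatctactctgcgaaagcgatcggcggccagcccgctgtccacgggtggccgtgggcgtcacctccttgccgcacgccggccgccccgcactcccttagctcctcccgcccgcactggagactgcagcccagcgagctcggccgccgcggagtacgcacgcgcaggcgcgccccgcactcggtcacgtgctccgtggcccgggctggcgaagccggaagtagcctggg
Myd88, chr9:119339969-119340268, minus strand: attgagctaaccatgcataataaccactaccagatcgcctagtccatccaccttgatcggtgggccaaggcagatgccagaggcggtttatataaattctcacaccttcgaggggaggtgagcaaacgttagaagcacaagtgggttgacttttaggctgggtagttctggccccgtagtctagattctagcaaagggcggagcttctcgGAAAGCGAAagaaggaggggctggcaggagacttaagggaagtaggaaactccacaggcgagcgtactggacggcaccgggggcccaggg

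The capitals in Ikbke (TGAATCA) match the AP-1 letters searched here (TGANTCA), which allow any base in the middle, and start 6 bases before the gene start. Those in Myd88 match the core of an interferon-stimulated response element (GAAANNGAA) and start 40 bases before the gene start. The Tbk1 window held no match to these motifs, to CRE (TGACGTCA), to the PU.1 core (GAGGAAGT), to the NRF1 core (GCATGCGC) or to the NF-kB motif, all searched on both strands by exact letters. Over 32851 promoter windows of this length AP-1 matched in 7.81%, the response element core in 8.56%, CRE in 1.79%, PU.1 in 3.2%, NRF1 in 2.71% and NF-kB in 8.46%. The windows also differed in composition. Tbk1 had 69.0% G and C with 37 CpG sites, Ikbke 54.0% with 4 and Myd88 54.0% with 13, beside medians of 52.7% and 7.0 over all windows. The table's regions covered all 300 bases of the Tbk1 window, 236 of the Myd88 window and 170 of the Ikbke window. Among the others, only a second Irak3 window (chr10:120202081-120202380) matched the response element core, on the strand opposite to that of the gene. The Trex1 windows matched the PU.1 core and the NF-kB motif, and Mavs, Ticam1, Irak2 and the first Irak3 window had no match.

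Tmem173, which encodes the STING adaptor of DNA sensing, passed in neither sum and lost accessibility in 1 weak region. Its end region, at the higher coordinate of the gene, had 17.5 to 18.8 CPM (counts scaled to the library total) at day 21, against 18.0 to 20.8 CPM at day 7 (log2 fold change −0.09 ± 0.10 SE, edgeR adjusted p = 0.489). The 8 distal regions summed to 42.7 ± 2.55 CPM at day 21 and 43.9 ± 4.84 CPM at day 7 (SD, n = 4 each, edgeR adjusted p = 0.704). In the gene body, the region chr18:35738690-35738985 had 1.05, 1.14, 1.24 and 1.49 CPM in the day 21 libraries, against 3.82, 1.70, 4.81 and 3.54 CPM in the day 7 libraries. The days did not overlap, and the region fell by 1.48 ± 0.28 on the log2 scale (edgeR adjusted p = 6.25e-05). With a 2000 bp window in place of 1 kb, the gene-end sum took in this same body region and was lower (−0.24, adjusted p = 0.043). The call on the body region held in all 14 alternatives run.

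Mavs, the mitochondrial adaptor of the RNA sensors RIG-I and MDA5, also passed in neither sum and fell in 1 weak region. Its ends had 50.7 to 55.3 CPM at day 21, against 52.6 to 63.3 CPM at day 7 (−0.11 ± 0.06, edgeR adjusted p = 0.181). Most of that count lay in its start region, chr2:131233750-131234289, with 44.2 ± 1.31 CPM at day 21 and 48.7 ± 3.41 CPM at day 7. A body region 5.6 kb from the start, chr2:131239480-131239856, had 0.42, 0.24, 0.53 and 0.57 CPM at day 21, against 1.99, 1.91, 1.69 and 1.37 CPM at day 7. All day 21 libraries were below all day 7 libraries, at total counts of 35 and 84, and the region fell by 1.92 ± 0.43 on the log2 scale (edgeR adjusted p = 6.97e-04). It was the largest fold among the 68 tested regions, at a low level, and it was called in all 13 alternatives in which it was tested.

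Tbk1, a kinase that phosphorylates IRF3 downstream of both pathways, fell in its gene-end sum and rose in its distal regions. All 3 regions of that gene-end sum lay at its start. Gene ends had 45.6, 38.0, 42.1 and 40.8 CPM in the day 21 libraries, against 48.5, 43.1, 53.0 and 51.8 CPM in the day 7 libraries. Day 21 replicate 1 lay above day 7 replicate 2, so the days overlapped. The change was −0.25 ± 0.07 (edgeR adjusted p = 0.00552). Trended offsets, which remove the mean shift of all gene ends by construction, gave −0.14 (adjusted p = 0.128). Of its 3 end regions, 2 are shared with the window of Xpot. 1 of these, chr10:121587442-121587757, lies in the Xpot body, is not among the 70 regions and did not pass (−0.19 ± 0.16, edgeR adjusted p = 0.462). Without the 2 shared regions the sum was the region chr10:121585933-121586246 alone, and the change was −0.46 (adjusted p = 0.0405). Tested as a region among all regions, it did not pass (−0.46 ± 0.18, edgeR adjusted p = 0.0539). It had 3.79 to 5.78 CPM at day 21, against 5.31 to 8.39 CPM at day 7, so the days overlapped. The start region, chr10:121586443-121587143, had 30.8, 29.0, 29.1 and 29.0 CPM at day 21, against 32.2, 30.9, 39.1 and 34.5 CPM at day 7 (−0.22 ± 0.08, edgeR adjusted p = 0.0461). Its call was lost without day 7 replicate 3 (0.265) or 4 (0.101), without day 21 replicate 2 (0.0897), 3 (0.0538) or 4 (0.0972), after thinning (0.305), without a low count filter (0.0551) and with DESeq2 (0.0556).

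The 10 distal regions of Tbk1 summed to 77.3, 69.8, 69.6 and 71.6 CPM at day 21, against 67.7, 58.0, 60.7 and 63.9 CPM at day 7. All day 21 libraries were above all day 7 libraries (0.20 ± 0.06, edgeR adjusted p = 0.00947), with a lost call in windows of 500 bp (0.15, 0.0605). 2 regions, both in the gene body, were called higher. A region 3.59 kb from the start, chr10:121582941-121583458, had 31.6, 28.8, 30.9 and 30.1 CPM at day 21, against 25.3, 20.5, 22.5 and 24.0 CPM at day 7. It rose by 0.39 ± 0.09 (edgeR adjusted p = 5.32e-04), without overlap and in all 14 alternatives run. The other, chr10:121549630-121550159, 36.9 kb from the start, had 22.0 to 25.6 CPM at day 21, against 18.2 to 21.9 CPM at day 7 (0.28 ± 0.09, edgeR adjusted p = 0.0264). That call was lost without any of 6 libraries: day 7 replicates 2 (0.0827), 3 (0.0674) and 4 (0.0508), day 21 replicates 1 (0.0606), 2 (0.0941) and 4 (0.0654). It was also lost with trended offsets (0.0595).

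Past the far end of Tbk1, 2 regions fell. The region chr10:121520889-121521312, 65.7 kb from the start, had 2.11, 0.42, 0.59 and 0.85 CPM at day 21, against 2.99, 1.70, 3.20 and 1.93 CPM at day 7 (−1.34 ± 0.36, edgeR adjusted p = 0.00405). Day 21 replicate 1 lay inside the range of day 7. The region chr10:121531322-121531936, 55.2 kb from the start, had 2.95 to 3.80 CPM at day 21, against 4.402 to 5.903 CPM at day 7 (−0.58 ± 0.20, edgeR adjusted p = 0.0307). It lost its call without day 7 replicate 2 (0.0537) or 4 (0.129) and without day 21 replicate 2 (0.0848) or 3 (0.0565).

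Ikbke, the kinase related to TBK1 that is induced in activated immune cells, had the largest fold among the gene-end sums. Its ends had 3.52, 1.93, 2.42 and 1.89 CPM in the day 21 libraries, against 5.32, 7.01, 3.12 and 5.47 CPM in the day 7 libraries. Only day 21 replicate 1 reached into the day 7 range, above day 7 replicate 3. The change was −1.12 ± 0.24 (edgeR adjusted p = 2.89e-04), and it was called without any 1 of the 8 libraries. The far end region, chr1:131253599-131253931, had 1.55, 1.32, 1.59 and 0.92 CPM at day 21, against 3.74, 3.51, 1.35 and 3.79 CPM at day 7 (−1.23 ± 0.30, edgeR adjusted p = 0.00149). Day 7 replicate 3 was the exception within its group. The start regions were weak. The region over the start, chr1:131279543-131279712, had total counts of 27 at day 21 and 39 at day 7 and was not tested, and the region 0.841 kb upstream of it had −0.81 ± 0.46 (edgeR adjusted p = 0.221). Summed at the start end alone, the change was called (−0.96, adjusted p = 0.0347). In windows of 2000 bp the sum takes in a neighbouring region of 10.1 ± 1.70 CPM at day 21 and 9.59 ± 1.48 CPM at day 7, and the change was −0.25 (adjusted p = 0.115). Distal regions of Ikbke summed to 16.2 to 20.5 CPM at day 21, against 16.9 to 21.9 CPM at day 7 (−0.07 ± 0.10, edgeR adjusted p = 0.663).

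For both kinases the change at the ends was more negative than in the distal regions. The difference between the change at gene ends and in distal regions was −0.44 ± 0.09 for Tbk1 (limma adjusted p = 0.0194) and −0.99 ± 0.22 for Ikbke (limma adjusted p = 0.0214). Over 11245 genes the median of this difference was −0.112, so ends were more negative in general. Of these genes 12.3% had more negative ends and 15.7% differed either way. The other 5 genes did not pass, with unadjusted p of 0.178 or more. These calls were near the threshold. Tbk1 lost its call without day 21 replicate 2 (0.0546) or 4 (0.057) and with windows of 500 bp (0.0523), and Ikbke without day 7 replicate 4 (0.0522), day 21 replicates 2 (0.0568), 3 (0.0525) and 4 (0.0603) and with windows of 2000 bp (−0.03, 0.929).

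**Figure D2:**
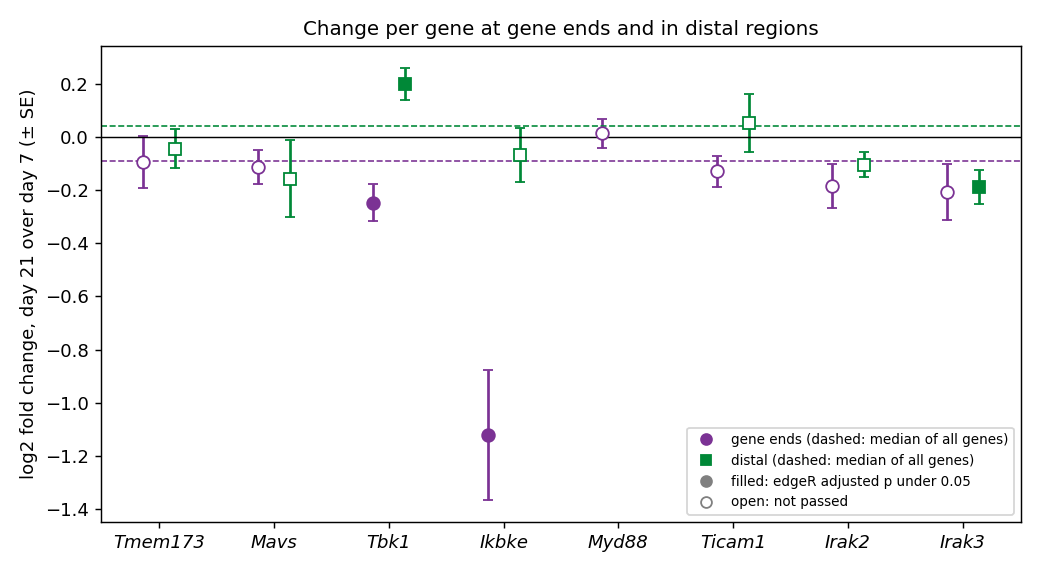
Log2 fold change (day 21 over day 7, ± SE) per gene at gene ends (circles) and in distal regions (squares), filled where the edgeR adjusted p is under 0.05, with dashed lines at the medians of all genes. Tbk1 has −0.25 at its ends and 0.20 in distal regions, and Ikbke ends have −1.12.

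Myd88, the adaptor of most Toll-like receptors and of interleukin-1 receptors, did not pass at its ends as a whole. They summed to 135.6, 130.2, 130.4 and 130.4 CPM at day 21, against 119.5, 144.5, 127.0 and 131.2 CPM at day 7 (0.01 ± 0.05, edgeR adjusted p = 0.87). More than any other region, chr9:119340874-119341598, which is nearest to Acaa1a and overlaps both windows, made up this sum, with 72.8 ± 0.458 CPM at day 21 and 78.5 ± 9.46 CPM at day 7. The region at the far end, chr9:119334292-119335243, had 44.4, 37.7, 42.1 and 40.6 CPM at day 21, against 33.8, 37.6, 34.6 and 35.3 CPM at day 7. Every day 21 library was above every day 7 library, by a small margin (0.22 ± 0.08, edgeR adjusted p = 0.0278). It did not pass without day 7 replicate 1 (0.0784), 3 (0.0723) or 4 (0.0649) and without day 21 replicate 1 (0.0945), 3 (0.0756) or 4 (0.0547). The region at the start, chr9:119339667-119340204, had 17.7 ± 1.48 CPM at day 21 and 16.7 ± 1.649 CPM at day 7 (0.08 ± 0.11, edgeR adjusted p = 0.682). With the regions shared with Acaa1a left out, the sum was the far end region alone and was called (0.22, adjusted p = 0.0172), whereas the start end alone had −0.07 (0.342). No distal region fell to Myd88.

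Ticam1 encodes TRIF, the adaptor of TLR3, which cDC1s express, and of TLR4. Its ends had 69.9, 67.0, 72.0 and 71.0 CPM at day 21, against 74.0, 78.4, 77.0 and 77.1 CPM at day 7. Every day 21 library lay below every day 7 library, but the change of −0.13 ± 0.06 did not pass (edgeR adjusted p = 0.0778), and without day 21 replicate 3 it did (0.042). The start region, chr17:56276505-56277200, had −0.12 ± 0.07 and the far end region −0.16 ± 0.09, neither of which passed (edgeR adjusted p = 0.233 and 0.241). Its only distal region, in the body, had 14.2 to 19.0 CPM at day 21 and 14.3 to 17.3 CPM at day 7 (edgeR adjusted p = 0.764).

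Irak2, a kinase of the MyD88 signalling complex, had the most regions. All of its 18 regions lay in its body, 17 distal and 1 at its start, and 3 passed, all lower. That is 16.7% of the 18, beside 9.86% lower and 19.4% either way of all tested regions. The start region, chr6:113638230-113638823, had 24.9 to 30.9 CPM at day 21, against 29.0 to 35.9 CPM at day 7 (−0.18 ± 0.08, edgeR adjusted p = 0.0843 as the gene-end sum). That sum was called without day 7 replicate 1 (0.0464) and without day 21 replicate 3 (0.0227). The distal sum was 263, 269.7, 315 and 261 CPM at day 21, against 291, 292, 303 and 305 CPM at day 7 (−0.11 ± 0.05, edgeR adjusted p = 0.0825). Day 21 replicate 3 stood above all the others, and without it the sum was called (9.9e-05), as it was with trended offsets (−0.21, 6.31e-06). The 2 regions with most counts, 6.54 kb and 30.4 kb from the start, were called in neither direction, with 46.5 ± 3.44 and 37.9 ± 6.68 CPM at day 21 and 46.7 ± 1.47 and 39.5 ± 1.77 CPM at day 7.

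Of the 3 Irak2 losses, the region 23.3 kb from the start, chr6:113661515-113662117, had 21.4, 16.7, 22.1 and 19.6 CPM at day 21, against 26.2, 24.9, 26.0 and 26.6 CPM at day 7. It did not overlap between days and fell by 0.38 ± 0.09 on the log2 scale (edgeR adjusted p = 0.00172). The region chr6:113660444-113660791, 22.2 kb from the start, had 6.89 to 10.6 CPM at day 21, against 10.1 to 13.4 CPM at day 7 (−0.45 ± 0.14, edgeR adjusted p = 0.0145), and lost its call without day 7 replicate 3 (0.0743) or day 21 replicate 1 (0.0666). The other region, 36.9 kb from the start, had 10.1 to 16.3 CPM at day 21, against 14.5 to 16.9 CPM at day 7 (−0.40 ± 0.13, edgeR adjusted p = 0.0155). Its call was lost without day 7 replicate 3 (0.0588) or day 21 replicate 2 (0.0713) or 4 (0.0993).

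Irak3, which encodes IRAK-M, a family member that restrains Toll-like receptor signalling, fell in its distal regions. They summed to 52.9, 51.1, 51.3 and 55.5 CPM at day 21, against 63.5, 53.4, 61.2 and 61.6 CPM at day 7 (−0.19 ± 0.07, edgeR adjusted p = 0.022). Day 21 replicate 4 lay above day 7 replicate 2, so the days overlapped. The call was lost without day 7 replicate 1 (0.0887), 3 (0.0588) or 4 (0.0712), without day 21 replicate 2 (0.0555), and after thinning to the smallest library (0.086). The losses lay in the second part of the gene body. The region 38.4 kb from the start, chr10:120163476-120163910, had 5.63, 5.29, 3.89 and 6.90 CPM at day 21, against 10.9, 8.39, 10.0 and 10.1 CPM at day 7. The days did not overlap (−0.85 ± 0.16, edgeR adjusted p = 4.85e-05), and it was called in all 14 alternatives run. A neighbour 36.1 kb from the start, chr10:120165793-120166174, had 3.23, 3.13, 3.42 and 3.49 CPM at day 21, against 4.82, 3.82, 6.58 and 6.46 CPM at day 7 (−0.72 ± 0.20, edgeR adjusted p = 0.00643), also called in all 14.

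Nearer the start, the Irak3 regions 8.71 kb and 12.5 kb from it had 0.30 ± 0.14 and −0.00388 ± 0.12 and did not pass (edgeR adjusted p = 0.123 and 0.988). A region 50.2 kb from the start had 0.59 to 1.02 CPM at day 21, against 1.17 to 1.83 CPM at day 7 (−1.11 ± 0.39, edgeR adjusted p = 0.0368), and the far end region, chr10:120141152-120141558, had 1.44 to 2.53 CPM at day 21, against 2.86 to 3.88 CPM at day 7 (−0.68 ± 0.25, edgeR adjusted p = 0.0427). Neither overlapped between days, but each lost its call in 8 of 14 alternatives. For the region at 50.2 kb these included leaving out day 7 replicates 1 (0.0836), 3 (0.0725) or 4 (0.102) or day 21 replicates 3 (0.0839) or 4 (0.108), and for the far end day 7 replicates 1 (0.0585), 2 (0.0895) or 3 (0.117) or day 21 replicates 2 (0.149) or 4 (0.0804). Thinning (0.0704 at 50.2 kb and 0.086 at the far end) and trended offsets (0.0539 and 0.0543, in the same order) also ended both calls, and DESeq2 that at the far end (0.0528). The gene ends of Irak3 as a sum had 14.02 to 16.98 CPM at day 21, against 15.8 to 20.7 CPM at day 7 (−0.21 ± 0.10, edgeR adjusted p = 0.126).

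**Figure D3:**
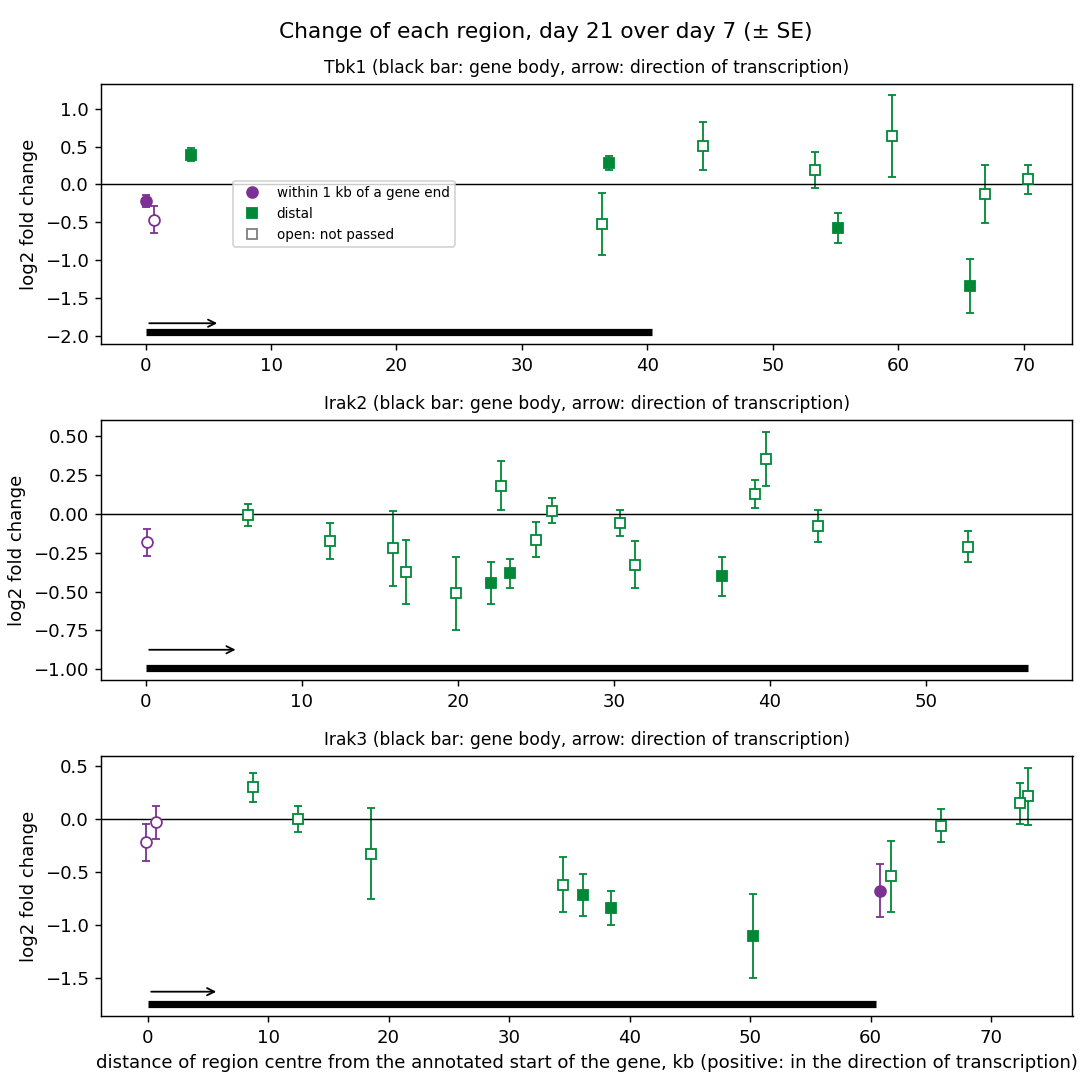
Log2 fold change of each tested region (day 21 over day 7, ± SE) against the distance of its centre from the gene start, for Tbk1, Irak2 and Irak3, with circles within 1 kb of a gene end, squares distal and filled symbols called. The Tbk1 gains lie 3.59 kb and 36.9 kb from the start, and the Irak3 losses between 36.1 kb and 60.8 kb.

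**Figure D4:**
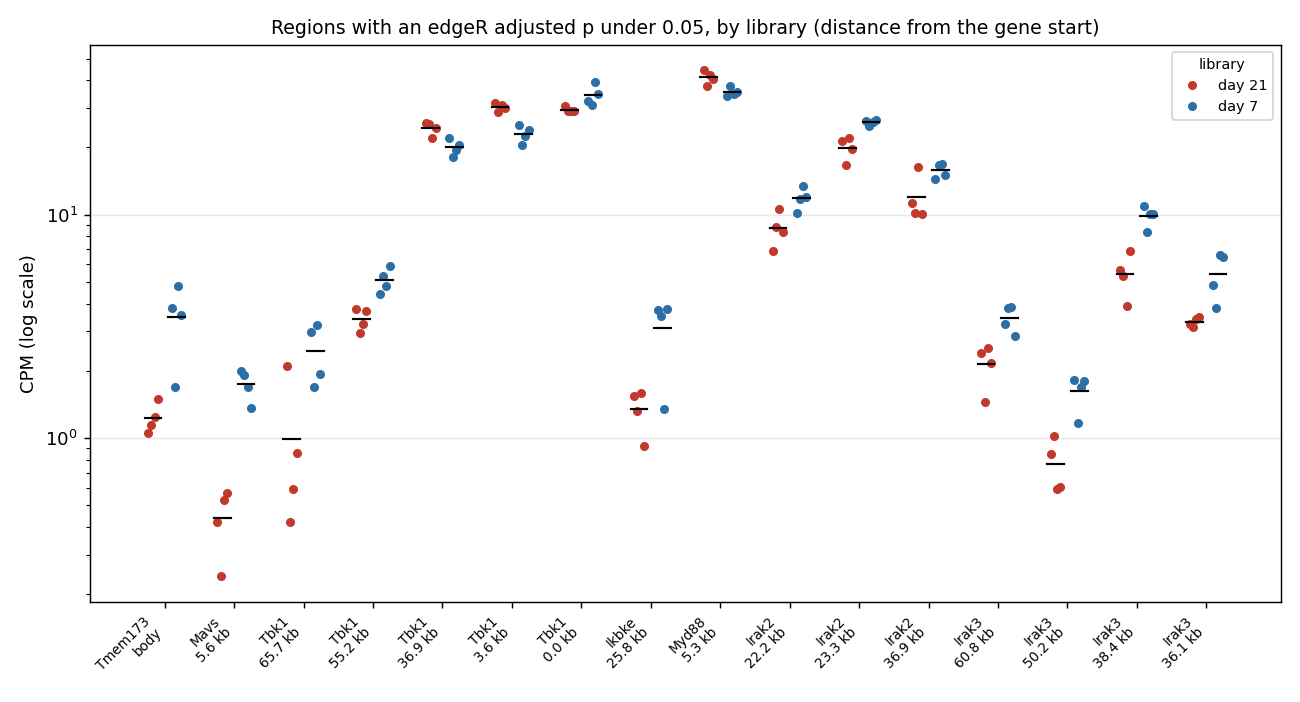
CPM (log scale) of each library in the 16 regions called by edgeR, day 21 left of day 7, with bars at the means and the distance from the gene start beneath each gene. 3 regions, 2 of Tbk1 and 1 of Myd88, lie higher at day 21, and the losses at the ends of Ikbke and in Tmem173, Mavs and Irak3 lie at under 12 CPM.

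Start regions set on a per-length scale ran from Mavs, with 81.9 ± 2.43 CPM per kb at day 21 and 90.4 ± 6.32 CPM per kb at day 7, through Ticam1 (72.2 ± 2.06 at day 21 and 78.4 ± 2.84 at day 7) and Irak2 (47.2 ± 4.97 at day 21 and 53.6 ± 4.93 at day 7). Tbk1 followed with 42.1 ± 1.28 CPM per kb at day 21 and 48.9 ± 5.15 at day 7, and Myd88 with 32.9 ± 2.75 at day 21 and 31.2 ± 3.07 at day 7. This order leaves out chr9:119340874-119341598, which also overlaps the Myd88 start window but is nearest to Acaa1a. That region had 100.5 ± 0.633 CPM per kb at day 21 and 108.4 ± 13.1 at day 7, above the Mavs means. Ikbke was lowest, with 2.08 ± 1.69 CPM per kb at day 21 and 4.997 ± 2.99 at day 7 in the region over its start. That region had total counts of 27 at day 21 and 39 at day 7 and was not tested. The Ikbke start region with more counts, 0.841 kb upstream, had 2.40 ± 1.19 CPM per kb at day 21 and 4.18 ± 2.29 at day 7. At the Irak3 start the region upstream had 17.7 ± 3.10 CPM per kb at day 21 and 20.6 ± 1.95 at day 7, and the region in the body 9.27 ± 1.89 at day 21 and 9.58 ± 1.45 at day 7. The Tmem173 end region had 14.3 ± 0.464 CPM per kb at day 21 and 15.3 ± 1.21 at day 7. In this order the library ranges of Irak2 and Tbk1 overlapped at both days, and those of the upstream Irak3 region and Tmem173 at day 21.

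Across the 8 libraries, the gene ends most like those of Ikbke were Sox11 (Pearson r 0.989 of log2 CPM), Katnal2 (0.983) and Gli3 (0.978), and the distal sums most like those of Tbk1 were Zfp648 (0.990), C5ar2 (0.987) and Pter (0.983). The ends of Sox11 had a mean of 1.12 CPM at day 21 and 3.40 CPM at day 7, and those of Gli3 0.824 and 3.17 CPM. Like those of Ikbke, both were weak and lower at day 21 (−1.63 and −2.02), while Katnal2 was stronger (30.5 and 37.2 CPM, −0.29). The r values share the libraries, their depth and the contrast of days, and are a description among 13571 and 14829 genes.

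Other genes of these pathways were taken from lists chosen with earlier results known. Their counts stand beside 6.71% higher and 24.6% lower of all gene-end sums, and 19.2% higher and 11.4% lower of all distal sums, so losses at ends and gains in distal regions were the more frequent calls over all genes too. The first list held nucleic acid sensors together with other cytosolic sensors such as Nlrp3 and Nod2. At gene ends 2 of its 13 tested genes passed, both lower, among them the DNA helicase Ddx41 (33.1 ± 3.23 CPM at day 21 and 44.1 ± 2.99 CPM at day 7, −0.42 ± 0.08, edgeR adjusted p = 1.82e-05). In distal regions 5 of 12 genes of this list passed, all higher, with Nlrp3 at 0.31 ± 0.06 and Eif2ak2, the RNA-activated kinase PKR, at 0.46 ± 0.09 (edgeR adjusted p = 8.33e-05 and 8.66e-05). Of 15 Toll-like receptors and chaperones 2 rose and 1 fell at their ends, and 3 rose and 2 fell of 16 in distal regions, where Tlr3, the receptor upstream of TRIF, rose by 0.26 ± 0.06 (edgeR adjusted p = 3.35e-04).

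Of 19 other adaptors 1 rose and 4 fell at their ends. In distal regions 5 of 17 rose and 4 fell, with the smallest p at Traf2, a ubiquitin ligase of TNF receptor signalling (12.5 ± 2.68 CPM at day 21 and 27.0 ± 2.86 CPM at day 7, −1.11 ± 0.11, edgeR adjusted p = 4.87e-12). Among 9 other kinases 4 passed at their ends, all lower, and 2 in distal regions, both higher. Map3k7 (TAK1) had the same pair of directions as Tbk1, with −0.23 ± 0.07 at its ends and 0.21 ± 0.07 in distal regions (edgeR adjusted p = 0.0129 and 0.0169). Of the transcription factors downstream, 1 of 8 rose and 2 fell at their ends, with Jun at 0.55 ± 0.06 (edgeR adjusted p = 5.76e-12) and Rel at −0.25 ± 0.05 (2.97e-04), and 4 of 7 passed in distal regions, all higher. Nucleases and inhibitors had 1 rise and 4 losses of 16 at their ends, and 1 rise and 3 losses of 17 in distal regions.

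Libraries differed in depth, with 14021151 to 27737040 counts at day 21 and 9440223 to 16063736 counts at day 7. Of a library's counts, 36.1% to 36.6% lay at gene ends at day 21 and 37.9% to 39.4% at day 7, which moved with the fall at the ends of Tbk1 and Ikbke, and its part in them was not tested. Chi-square values per region between replicates of a day ran from 2.16 to 3.00, so no library was a copy of another. Marker counts stand beside all genes, with 6.71% of gene-end sums higher and 24.6% lower, and 19.2% of distal sums higher and 11.4% lower. Of 11 cDC1 markers 10 had tested ends (all but Itgae), with a summed 427 to 451 CPM at day 21 and 405 to 441 CPM at day 7. Of these ends 2 were higher (Naaa at 0.36 ± 0.06 and Wdfy4 at 0.47 ± 0.10), 1 was lower (Irf8 at −0.51 ± 0.07, edgeR adjusted p = 8.15e-08) and 7 did not pass, among them Clec9a, Xcr1, Batf3 and Flt3. Of the markers of other cells, 1 T and NK cell gene rose and 2 fell of 6 with tested ends, with a summed 45.8 to 54.99 CPM at day 21 and 46.4 to 55.3 CPM at day 7, and Cd3g, Lck, Zap70 and Ncr1 had no tested end. B cell markers had 1 rise of 5 and summed to 45.8 to 51.3 CPM at day 21 and 37.7 to 46.0 CPM at day 7, macrophage markers had 2 rises of 9 and 56.2 to 61.2 CPM at day 21 and 49.2 to 57.3 CPM at day 7, and neutrophil markers 7.45 to 10.6 CPM at day 21 and 7.14 to 9.78 CPM at day 7. pDC markers had 1 rise and 2 losses of 3, with 66.2 to 69.8 CPM at day 21 and 72.7 to 79.0 CPM at day 7, and stromal markers 1 loss of 4, with 10.1 to 11.02 CPM at day 21 and 11.5 to 15.6 CPM at day 7. Melanoma markers had 1 rise (Mitf) and 2 losses (Tyrp1 and Sox10) of 5, with 162 to 174 CPM at day 21 and 164 to 178 CPM at day 7, and Tyr and Dct had no tested end. Pmel, which did not pass, held most of that sum, with 116 ± 5.47 CPM at day 21 and 123 ± 6.18 CPM at day 7. The losses were at low levels, with Tyrp1 at 0.301 ± 0.273 CPM at day 21 and 1.32 ± 0.546 CPM at day 7, and Sox10 at 0.572 ± 0.339 and 1.30 ± 0.460 CPM. In distal regions cDC1 markers summed to 1857 to 1998 CPM at day 21 and 1623 to 1716 CPM at day 7 (6 of 10 rose and 1 fell), and B cell markers to 140.0 to 156 CPM at day 21 and 127 to 133 CPM at day 7 (2 of 4 rose). Distal T and NK cell markers summed to 212 to 231 CPM at day 21 and 246 to 263 CPM at day 7 (3 of 9 fell), and melanoma markers to 165 to 182 CPM at day 21 and 185 to 198 CPM at day 7 (3 of 5 fell). Distal macrophage markers (3 of 10 rose, 1 fell) had 323 to 334 CPM at day 21 and 289 to 325 CPM at day 7. Distal pDC markers (1 of 5 rose) had 277 to 286 CPM at day 21 and 285 to 293 CPM at day 7. Distal neutrophil markers (no call among 5) had 94.6 to 104 CPM at day 21 and 103 to 110 CPM at day 7. Distal stromal markers (1 of 7 fell) had 234 to 243 CPM at day 21 and 239 to 253 CPM at day 7. The part of these marker sets in the changes described was not tested.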

How the data were processed

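The deposited table holds a raw count for each region and library, with no normalization. MACS2 2.1.0.20150603, cutadapt 1.9, bedtools, Picard 1.65 and SAMtools, on mm10 and GRCm38, are named in the submitters' processing notes. The aligner, the peak merging, and whether reads or insertions were counted are not given in the sources used here, nor is a transposase shift or the coordinates' counting base. Genes and promoters came from RefSeq (GRCm38.p6, the assembly of mm10), whose strands cover 17492 genes and not Tmem173.

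Counts were tested with edgeR 4.0.16 (R 4.3.3): filterByExpr, TMM factors (0.978 to 1.01), glmQLFit and glmQLFTest, Benjamini-Hochberg adjustment over all regions or genes, threshold 0.05. Gene-end and distal sums used the same factors, and ends were set against distal regions with limma 3.58.1 on log2 CPM (prior count 2). CPM use TMM-scaled totals, and SE is the log2 fold change over the square root of F. The fits were also run on simulated counts with few changed features, balanced in direction and with a fixed spread between libraries. That run does not test the normalization where changes are many and shifted in direction, as at gene ends here. Alternatives included DESeq2 1.42.0. The members, lists and markers were chosen with earlier results of these data known. All members were named, with each end's largest region and up to 5 called regions by p, and lists contributed examples among their 2 smallest p values per kind of sum, while others were chosen after their values were seen.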

Additional observations from a re-analysis of the deposited data

Results flagged for a closer look

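Of 62 groups of 4 libraries checked, 4 had a highest or lowest library far from the other 3, and chance flags about 1 group in 20. Myd88 gene ends had 135.64 CPM in day 21 replicate 1, where the other day 21 libraries had 130.19 to 130.441 CPM. Irak2 distal regions had 314.993 CPM in day 21 replicate 3 and 260.844 to 269.704 CPM in the other 3. The Tbk1 start region (chr10:121586443-121587143) had 30.7985 CPM in day 21 replicate 1 and 28.9589 to 29.059 CPM in the rest. The Ikbke far end region (chr1:131253599-131253931) had 1.34908 CPM in day 7 replicate 3 and 3.50551 to 3.79015 CPM in the other day 7 libraries.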

How the results depend on the processing

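Leaving out 1 library gave 1 to 2 regions higher and 9 to 13 lower, 2 to 4 gene-end sums lower, 0 to 2 distal sums lower, and 0 to 2 genes with more negative ends than distal regions. Gene-end sums had 1 higher with shared regions left out, and 1 lower with trended offsets and with 500 bp windows. Distal sums had 2 lower with the replicate block and with trended offsets, and 0 after thinning. Ends against distal regions had 0 lower with the replicate block and with 500 bp windows, and 1 with 2000 bp windows. With the block Tbk1 and Ikbke had adjusted p = 0.0537 and 0.0556 there, Irak2 distal regions 0.0385, Ticam1 ends 0.043 and the Irak3 region at 50.2 kb 0.05002, which ended its call. Deviations of same-numbered libraries correlated by 0.0041 to 0.0098, so the numbers do not pair the libraries. Trended offsets moved the median of all gene ends to −0.004. Signs turned for uncalled values only. Without 1 library Myd88 ends ran from −0.025 to 0.063, distal Tmem173 from −0.101 to 0.017, distal Ticam1 from −0.029 to 0.108, and ends against distal regions from −0.020 to 0.097 for Mavs and from −0.0998 to 0.098 for Irak3. Myd88 was −0.072 at the start alone, distal Tmem173 0.025 after thinning and 0.033 with 2000 bp windows, and ends against distal regions −0.078 for Mavs with 500 bp windows and 0.021 for Irak2 with 2000 bp windows. Ikbke ends had no value with 500 bp windows. Of the values of single genes and regions under alternatives, 516 kept direction and call, 64 lost a call, 9 gained one and 13 turned sign, and causes were not tested. Regions under about 2 CPM rest on few counts.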
